A study of Mus musculus with 23 samples.

Results

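The comparison described here was the effect of the guide sg495 on gene expression in B16F10 cells taken out of tumors, set against the effect of the same guide on B16F10 cells kept in culture. Each effect was the mean log2(TPM + 1) of the sg495 libraries minus that of the control libraries, where TPM (the unit of the deposited table) is a level scaled for transcript length and library. The cultured effect was then subtracted from the sorted one. A gene entered if its TPM averaged 1 or more in these libraries, which 12563 of the 47643 genes in the table did, and 155 of these were called with opposite effects in the 2 settings. B16F10 is a melanoma line from C57BL/6 mice. The control cells carry the genotype label NR2F6 WT. The sg495 cells carry the label NR2F6 KO and were given Cas9 protein with a dye-labelled guide RNA against Nr2f6, then sorted for the dye, so they were a pool of edited cells with no statement that they came from 1 clone. Sorted cells came from subcutaneous tumors in male C57BL/6 mice, by digestion with collagenase D and magnetic depletion of stromal cells, and cultured cells never entered a mouse. Growth in a mouse and this handling go together in the sorted setting and cannot be told apart. The 4 groups had 2 libraries each, 8 of the 23 in the series, and sorted and cultured cells had controls of their own. The labels do not say that the 2 libraries of a group came from separate mice or cultures, so p-values measure the spread between these libraries, which may be technical.

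NR2F6 is an orphan nuclear receptor known as a repressor of cytokine genes in T cells. Interferon-γ acts through a receptor and JAK kinases to switch on IRF1, the MHC class I and class II genes that present peptides to T cells, and GTPases that act against intracellular microbes. Tumor cells in a mouse meet interferon from infiltrating lymphocytes, which cells in a dish do not. Hypoxia acts through HIF factors on glucose uptake, glycolysis and the growth factor VEGF-A, and solid tumors commonly hold hypoxic regions.

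The promoters of 5 called genes from the interferon and hypoxia groups are shown as examples of windows that hold a known control element, and were chosen for their matches. Other genes with large opposite differences, H2-K1, H2-DMb1, H2-D1, Parp12 and Adm among them, held none of the 3 motifs searched. Each is the 250 bases before the start in RefSeq, build GRCm38.p6, written 5′ to 3′ along the gene. The regions are chr17:36032702-36032951 (minus strand) for H2-T23, chr2:122147437-122147686 (plus) for B2m, chr11:53769764-53770013 (plus) for the upstream one of 2 Irf1 starts, chr5:120907526-120907775 (minus) for Oas1a and chr7:138909507-138909756 (minus) for Bnip3. Capitals mark the core of an interferon-stimulated response element, GAAANNGAAA, in H2-T23 (reverse strand), B2m and Oas1a, where 2 matches overlap. They mark the interferon-γ activation motif (GAS) TTCNNNGAA in Irf1 and in the upstream capitals of Oas1a, and the hypoxia response core ACGTG, here on both strands and overlapping itself, in Bnip3.
H2-T23: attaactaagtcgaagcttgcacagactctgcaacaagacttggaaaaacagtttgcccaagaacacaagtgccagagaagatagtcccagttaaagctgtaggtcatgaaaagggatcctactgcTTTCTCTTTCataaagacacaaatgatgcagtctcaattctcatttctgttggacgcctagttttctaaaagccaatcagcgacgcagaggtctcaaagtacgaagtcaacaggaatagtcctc
B2m: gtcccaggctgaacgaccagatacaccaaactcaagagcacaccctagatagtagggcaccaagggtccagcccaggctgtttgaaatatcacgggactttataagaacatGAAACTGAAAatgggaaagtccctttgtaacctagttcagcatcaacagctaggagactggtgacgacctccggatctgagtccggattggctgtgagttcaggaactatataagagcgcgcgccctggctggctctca
Irf1: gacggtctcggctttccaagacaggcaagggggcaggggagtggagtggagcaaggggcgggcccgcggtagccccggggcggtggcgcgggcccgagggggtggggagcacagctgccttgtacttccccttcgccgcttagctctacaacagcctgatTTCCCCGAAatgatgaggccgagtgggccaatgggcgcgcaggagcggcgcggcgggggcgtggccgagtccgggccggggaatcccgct
Oas1a: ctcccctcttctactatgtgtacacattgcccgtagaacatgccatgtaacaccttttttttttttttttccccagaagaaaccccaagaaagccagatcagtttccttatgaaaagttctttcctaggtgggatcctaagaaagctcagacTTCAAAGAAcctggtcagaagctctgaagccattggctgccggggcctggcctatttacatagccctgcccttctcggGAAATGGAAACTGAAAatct
Bnip3: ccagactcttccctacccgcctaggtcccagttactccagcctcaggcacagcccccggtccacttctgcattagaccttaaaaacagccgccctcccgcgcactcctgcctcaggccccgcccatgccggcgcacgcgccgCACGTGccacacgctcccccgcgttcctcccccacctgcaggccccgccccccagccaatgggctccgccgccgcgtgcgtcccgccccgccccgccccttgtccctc

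Over all RefSeq promoters of this length, 2.98% held the response element core on either strand, 7.02% the GAS motif and 16.6% the hypoxia core. Among genes higher with sg495 in sorted cells and lower in culture, 83 of 105 had a promoter in the table, and 9 of the 83 (10.8%) held the response element core, beside 2.92% of all tested genes with a promoter. The GAS motif was in 7 of the 83 (8.43%), near the 7.08% of tested genes. The response element core was in 5 of 18 called antiviral genes and in 3 of 14 called MHC class I genes, and in neither of the 2 listed H2-K1 promoters. The hypoxia core, chosen after the data were seen, was in 28 of the 83 (33.7%) and in 9 of 14 called hypoxia genes (64.3%), beside 26.1% of tested genes. In the reverse direction 35 of 50 genes had a promoter, of which 0 held the response element core, 1 held the GAS motif and 8 the hypoxia core. A match describes the letters in the window and does not show a bound site.

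The libraries were checked before their levels were compared. Melanocyte genes were high in all 8 libraries, with a summed level of 20310 to 23956 TPM over 18 genes and none at 0. Of the defining leukocyte markers, Ptprc (CD45) was at 0.15 TPM or less in sorted cells and listed at 0 in culture, and Cd3e was listed at 0 in all 8 libraries. Ifng itself was at 0.07 TPM or less. The summed level of the 23 leukocyte markers was 491 to 621 TPM in sorted and 428 to 563 TPM in cultured libraries, ranges that overlap. Their median level was 0.05 TPM in both sorted control libraries, 0.27 and 0.33 TPM in sorted sg495 and 0 in culture, and 8 and 10 of them were listed at 0 in sorted control against 6 and 3 in sorted sg495. By median and by number at 0 these markers were thus somewhat higher with sg495 in sorted cells, at values near 0. Their summed level gave no such order, at 621 and 605 TPM in sorted control and 491 and 612 TPM in sorted sg495. In cultured cells, which never entered a mouse, the sum was 428 to 563 TPM with 12 or 13 of the 23 at 0. The sum hence cannot show whether a few leukocytes were present, and nothing is drawn from it. Mitochondrial genes took 8.02% of the TPM in sorted sg495 library 1, against 3.82% to 4.03% in the other sorted libraries and 2.56% to 3.65% in cultured ones. That library stood apart, so counts are given below without it. Hbb-bs, a hemoglobin gene of red blood cells, was at 15.3 TPM in sorted sg495 library 2, against 1.03 to 2.88 TPM in the other sorted libraries. The part of these differences between libraries in the results was not tested.

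Nr2f6, on chromosome 8, had 20.3 and 17.7 TPM in sorted control, 10.6 and 12.2 TPM in sorted sg495, 31.9 and 32.9 TPM in cultured control, and 18.6 and 22.4 TPM in cultured sg495. Its RNA was thus lower with sg495 in both settings, with no overlap of libraries. The log2 effects were -0.69 ± 0.12 (SE, n = 2 against 2) in sorted cells and -0.64 ± 0.12 in culture (limma adjusted p = 0.0207 and 0.0327). The difference between these effects was -0.05 ± 0.17 (adjusted p = 0.9), and it changed sign in some fits that left out 1 library. The remaining RNA says nothing of the protein, since an edit of the reading frame need not remove RNA. The study reports that the knockout was checked by immunoblot and by sequencing of the guide target sites. Lower values extended over chromosome 8, where the median effect over 662 tested genes was -0.35 in sorted cells and -0.32 in culture, beside -0.04 and 0.00 over all genes. These shifts were alike in both settings and left a median difference of -0.03 on chromosome 8. Whether Nr2f6 moved apart from its chromosome was not tested.

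The sg495 effect differed between sorted and cultured cells at 257 genes, called at a limma adjusted p below 0.05 and a difference of at least 1.5-fold. The effect was larger (more positive) in sorted cells at 195 genes, 1.55% of those tested, and smaller at 62, 0.494%. Called genes with effects of opposite sign had to have both sg495 libraries beyond both controls in each setting, and an average of 1 TPM or more in each. Of these, 105 (0.836%) were higher with sg495 in sorted cells and lower in culture, led by MHC class I, interferon-response and hypoxia genes. The other 50 (0.398%) were lower in sorted cells and higher in culture, led among protein-coding genes by Krt80, a keratin. The same ordering of libraries, whatever the test, was present at 505 genes (4.02%) in the first direction and 968 (7.71%) in the second. Since the libraries were of bulk populations, fewer cells of a type and less RNA per cell cannot be told apart.

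In each setting on its own, 199 genes (1.58%) were called higher and 119 (0.947%) lower with sg495 in sorted cells, and 47 (0.374%) higher and 170 (1.35%) lower in culture. Here and below, a gene rose or fell in a setting where its own effect had a limma adjusted p below 0.05. Of the 170 genes that moved at this threshold in both settings, 142 moved the same way and 28 in opposite ways, 26 of which were called for the difference. The 105 genes of the first direction had a median effect of 0.48 in sorted cells and -0.61 in culture, beside all-gene medians of -0.04 and 0.00. Of these 105, 51 rose in sorted cells, 60 fell in culture and 18 did both. The 50 genes of the second direction had medians of -0.40 and 0.36, with 31 falling in sorted cells, 22 rising in culture and 8 doing both. Many genes thus had opposite estimates with 1 effect past the test.

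The counts rested on few libraries. Without cultured control library 1 or 2 the larger calls numbered 55 or 48 and the smaller 13 or 4, and without cultured sg495 library 1 or 2 they numbered 62 or 63 and 9 or 4. Without sorted control library 2 the larger calls were 124 and the smaller 31, without sorted control library 1 they were 131 and 30, and without sorted sg495 library 1, the one with the high mitochondrial share, they were 245 and 116.

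**Figure D1:**
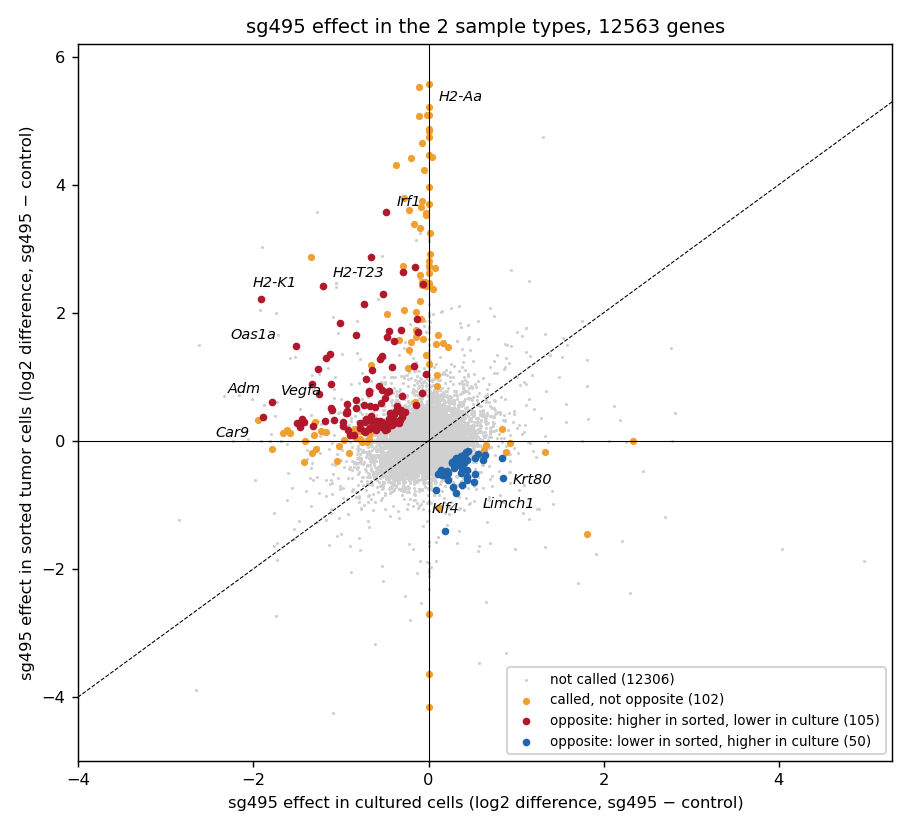
sg495 effect in sorted tumor cells (vertical axis) against that in cultured cells (horizontal axis), both as log2 differences of sg495 minus control on log2(TPM + 1), for 12563 genes. Red points are the 105 called genes higher in sorted cells and lower in culture, blue points the 50 with the reverse, orange points the other 102 called genes, grey points those not called, and the dashed line marks equal effects.

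MHC class I genes and the machinery that loads them with peptide had the largest opposite differences. Of 23 listed genes 19 were tested, 17 were called with a larger effect in sorted cells and 0 with a smaller one, and 7 had opposite effects. All 17 rose in sorted cells by at least 1.5-fold, and 3 of them, H2-K1, H2-T23 and H2-Q4, fell in culture by at least 1.5-fold. The median difference over the list was 2.86 log2 units, beside -0.04 over all genes. Calr and Pdia3, chaperones of the endoplasmic reticulum, were the 2 tested members without a call. Of the 19, 14 averaged 1 TPM or more in both settings, and with no filter on low values 15 of 23 were called. MHC class I genes are near-identical copies, and reads could be split among them in the estimation of TPM.

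H2-K1 (ENSMUSG00000061232, chr17:33996017-34000347, GRCm38) encodes a classical class I heavy chain. It had 71.7 and 70.5 TPM in sorted control and 303.5 and 369 TPM in sorted sg495, but 32.2 and 30.4 TPM in cultured control and 8.55 and 6.69 TPM in cultured sg495. The sg495 cells were thus above their controls by several times when sorted from tumors and below them by several times in culture. Its effects were 2.22 ± 0.12 in sorted cells and -1.91 ± 0.12 in culture (adjusted p = 0.0006 and 0.00201), a difference of 4.13 ± 0.18 (adjusted p = 0.000476). H2-T23, the non-classical Qa-1 molecule recognised by NKG2A receptors, had 5.12 and 6.29 TPM in sorted control, 34.1 and 35 TPM in sorted sg495, 2.97 and 2.61 TPM in cultured control and 0.75 and 0.55 TPM in cultured sg495. Its difference was 3.61 ± 0.20 (adjusted p = 0.000931), from effects of 2.41 and -1.20 that each passed the test. H2-Q4, another non-classical gene, went from 16.6 and 13.2 TPM to 61.2 and 76.3 TPM in sorted cells and from 9.07 and 9.68 TPM to 5.22 and 5.26 TPM in culture, a difference of 2.87 ± 0.20 (adjusted p = 0.00225).

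For the other class I members the difference came mostly from the sorted cells. B2m, the light chain shared by all class I molecules, had 344 and 238 TPM in sorted control, 1518 and 2086 TPM in sorted sg495, 239 and 233 TPM in cultured control and 196 and 188 TPM in cultured sg495. Its cultured libraries did not overlap, yet the cultured effect of -0.30 did not pass the test (adjusted p = 0.479), while the difference of 2.93 ± 0.27 did (adjusted p = 0.00418). The classical heavy chain H2-D1 had the same form, with effects of 2.71 in sorted cells and -0.15 in culture and a difference of 2.86 ± 0.28 (adjusted p = 0.0053). Psmb8, a subunit of the immunoproteasome that cuts peptides for class I, had 1.22 and 0 TPM in sorted control and 42 and 57.6 TPM in sorted sg495, but at most 0.17 TPM in cultured libraries. Its difference of 5.19 ± 0.52 (adjusted p = 0.00537) hence held no information on a fall in culture. Psmb9 of the same complex and Tap1, a subunit of the peptide transporter, differed by 4.83 and 4.62 (adjusted p = 0.0114 and 0.0247). The class I calls numbered 11 without cultured control library 2 and 10 without cultured sg495 library 1, and genes with opposite effects 7 or 8 under each alternative. With any 1 cultured library left out, 1 class I gene rather than 3 fell in culture by at least 1.5-fold.

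MHC class II genes, usually switched on in tumor cells by interferon-γ, differed mainly through the sorted cells, with a median effect of 4.43 there and 0 in culture. Of 13 listed 7 were tested, and 6 were called larger in sorted cells. Only 2 of the 7 averaged 1 TPM or more in both settings. Genes near 0 in culture could pass the filter through the sorted sg495 libraries alone, so this share and the sorted median depend on the filter. With no filter on low values 6 of 12 were called. H2-Aa, a class II α chain, had 0.98 and 0.1 TPM in sorted control and 53.7 and 53.8 TPM in sorted sg495 and was listed at 0 in all 4 cultured libraries (difference 5.21 ± 0.39, adjusted p = 0.00227). Cd74, the invariant chain, had 2.18 and 1.39 TPM in sorted control, 92.4 and 92.9 TPM in sorted sg495 and 0.06 to 0.36 TPM in culture (difference 5.08 ± 0.29, adjusted p = 0.000931). Class II genes are also high in antigen-presenting leukocytes. Of the leukocyte markers, Ptprc was at 0.15 TPM or less and Tyrobp was listed at 0 except for 0.48 TPM in sorted sg495 library 2, but Lcp1 was at 32.6 and 26.8 TPM in sorted control and 40.3 and 47.5 TPM in sorted sg495, and Cd68 at 5.06 and 3.62 against 6.76 and 12.1 TPM. Neither Lcp1 nor Cd68 passed the test in sorted cells (adjusted p = 0.117 and 0.0936), and the part of other cells in the class II values was not tested. H2-DMb1, which helps exchange class II peptides, was the 1 class II member with opposite effects. It had 4.61 and 3.52 TPM in sorted control, 31.3 and 41.1 TPM in sorted sg495, 3.01 and 3.95 TPM in cultured control and 1.88 and 1.76 TPM in cultured sg495, a difference of 3.53 ± 0.26 (adjusted p = 0.00227). Its lower value in culture did not pass the test (effect -0.66, adjusted p = 0.103).

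The interferon-induced GTPases likewise differed mainly through the sorted cells. Of the immunity-related GTPases 7 of 7 tested were called larger in sorted cells, and of the guanylate-binding proteins 5 of 6. Neither list had opposite effects, and median cultured effects were -0.03 and -0.04. Only 1 of the 7 and 0 of the 6 averaged 1 TPM or more in both settings, as a count of opposite effects required. Genes near 0 in culture could pass the filter through the sorted sg495 libraries alone, so these shares depend on the filter. With no filter on low values 4 of 12 were called in each list. Tgtp2 had the largest difference among called protein-coding genes, 5.63 ± 1.03 (adjusted p = 0.0407), from 5.21 and 0 TPM in sorted control and 136 and 94.6 TPM in sorted sg495, with at most 0.16 TPM in culture. Igtp had 3.61 and 0.35 TPM in sorted control and 95.5 and 74.6 TPM in sorted sg495 and at most 0.16 TPM in culture (difference 5.12 ± 0.71, adjusted p = 0.0171). Tgtp1, listed at 0 in all cultured libraries, had 4.71 and 0.51 TPM in sorted control and 109 and 65.7 TPM in sorted sg495 (difference 4.87 ± 0.79, adjusted p = 0.0286). Sorted control library 1 was above library 2 in each of these genes, and both lay far below the sg495 libraries. Without any 1 cultured library 0 or 1 of the GTPase calls of each list was kept.

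Antiviral interferon-stimulated genes were the largest group, with 40 of 55 listed tested, 23 called larger in sorted cells, 0 called smaller and 12 with opposite effects. Their median effect was 1.34 in sorted cells and -0.25 in culture. Of the 40, 28 averaged 1 TPM or more in both settings. Members near 0 in culture could pass the filter through the sorted sg495 libraries alone, so these shares depend on the filter. With no filter on low values 10 of 54 were called larger and 5 had opposite effects. Oas1a, a sensor of double-stranded RNA, had 6.45 and 3.93 TPM in sorted control, 14.8 and 17.2 TPM in sorted sg495, 2.66 and 3.02 TPM in cultured control and 0.2 and 0.5 TPM in cultured sg495. It rose in sorted cells by 1.48 and fell by 1.52 in culture on the log2 scale, a difference of 2.999 ± 0.323 (adjusted p = 0.00741). Parp12, an ADP-ribosyltransferase with antiviral action, had 14.3 and 11.1 TPM in sorted control, 49 and 46.5 TPM in sorted sg495, 7.45 and 7.81 TPM in cultured control and 2.97 and 3.65 TPM in cultured sg495, a difference of 2.85 ± 0.19 (adjusted p = 0.00225). Lgals3bp, a secreted glycoprotein, likewise moved in both settings, from 71 and 59.1 TPM to 141 and 140 TPM in sorted cells and from 59 and 54.5 TPM to 36.6 and 35.4 TPM in culture (difference 1.75, adjusted p = 0.00227). Oas1a, Parp12, Lgals3bp and Samd9l were the 4 antiviral genes that fell by at least 1.5-fold in culture. Lgals3bp and Samd9l were named after their values were seen. Ifitm3, which blocks virus entry, was named after its values were seen and had 68.9 and 50 TPM in sorted control, 185 and 191 TPM in sorted sg495, 20.5 and 23.5 TPM in cultured control and 10 and 14.3 TPM in cultured sg495 (difference 2.49, adjusted p = 0.00741). Antiviral calls numbered 5 and 4 without cultured control library 1 and 2, 6 without either cultured sg495 library, and 7 without sorted control library 2.

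Of the upstream factors, Irf1 and Irf9 were called for a difference between the settings and no receptor was. Irf1, the transcription factor at the head of the interferon-γ response, had 6.4 and 2.91 TPM in sorted control, 73.3 and 53.7 TPM in sorted sg495, 13.6 and 12.3 TPM in cultured control and 7.69 and 10.4 TPM in cultured sg495. The difference was 4.05 ± 0.43 (adjusted p = 0.00695), with the cultured effect of -0.48 not past the test (adjusted p = 0.463). Irf9, a DNA-binding subunit of an interferon-activated complex, differed by 1.75 (adjusted p = 0.0427), and the list of regulators had 3 calls among 19 genes tested, or 1 without either cultured control library. Among 8 interferon receptors and their kinases, limma called 0 and 1 passed an unadjusted p below 0.05, Ifngr2, with a difference of 0.44 (adjusted p = 0.142). Of 6 checkpoint ligands and related genes 2 were called larger, beside 1.55% of all genes tested. Cd274, which encodes PD-L1, had 7.1 and 5.38 TPM in sorted control, 24.9 and 19.9 TPM in sorted sg495, and 1.66 to 2.05 TPM in culture (difference 1.81, adjusted p = 0.0159), and Cd276 (B7-H3) differed by 0.74 (adjusted p = 0.0411) through a fall in culture, from 12.2 and 10.8 TPM to 5.1 and 5 TPM. Neither was called when any 1 cultured library was left out. Of 20 listed chemokines only 4 were tested, of which 0 were called and 0 passed an unadjusted p below 0.05. With no filter on low values 17 were tested and 1 was called larger. Cxcl10, a chemokine that draws T cells, was higher with sg495 in both settings. Its effects were 0.74 in sorted cells (adjusted p = 0.0237) and 0.58 in culture (adjusted p = 0.0614), with a difference of 0.16 ± 0.19 (adjusted p = 0.688).

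**Figure D2:**
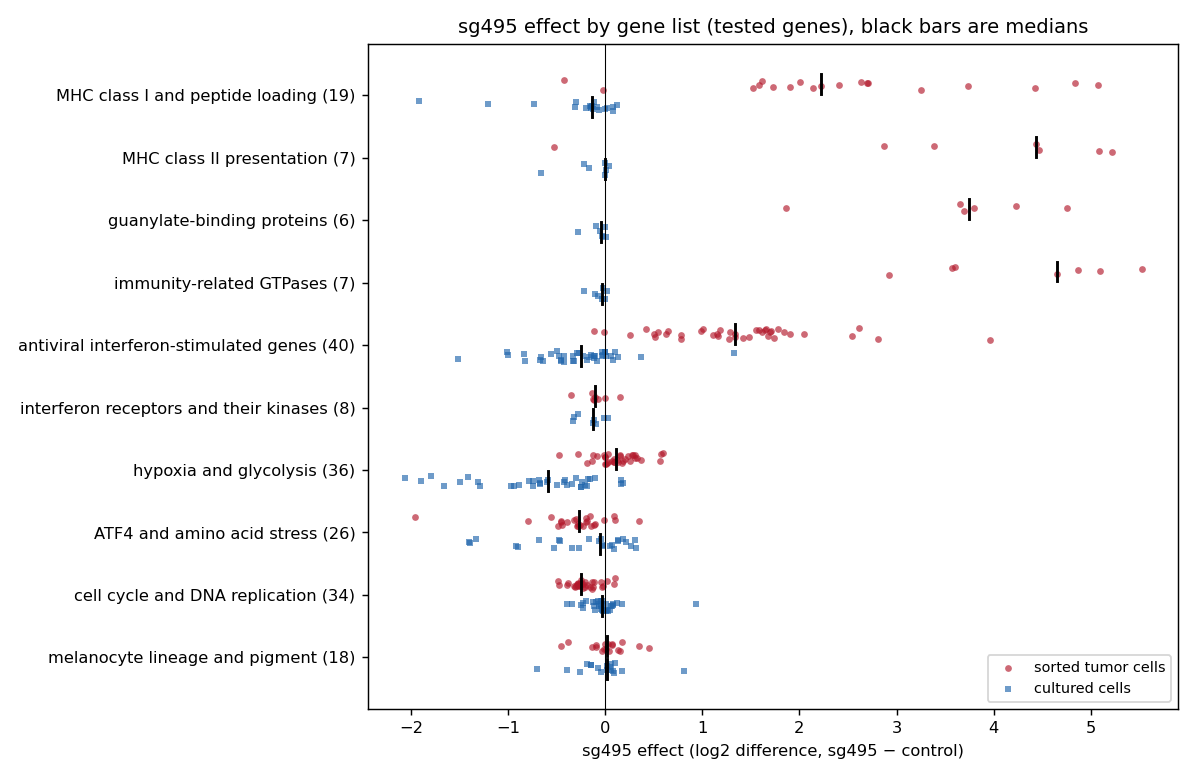
sg495 effect (horizontal axis, log2 difference of sg495 minus control) of each tested gene of 10 gene lists, in sorted tumor cells (red circles) and in cultured cells (blue squares), with black bars at the medians. The MHC, guanylate-binding protein, immunity-related GTPase and antiviral lists lie to the right in sorted cells, at medians of 1.34 to 4.65, with medians of -0.25 to 0 in culture, the receptor list has medians of -0.11 and -0.12, while the hypoxia list has medians of 0.11 in sorted cells and -0.59 in culture.

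Hypoxia and glycolysis genes made up the other large group, and here the difference came mostly from culture. Of 37 listed genes 36 were tested, 16 were called larger in sorted cells and 0 smaller, and 10 had opposite effects. At 26 of the 36 the estimate was above 0 in sorted cells and below 0 in culture, beside 19.9% of all genes tested. In culture 18 fell by at least 1.5-fold, while in sorted cells only Adm rose by that much. The median effect was 0.11 in sorted cells and -0.59 in culture, a median difference of 0.76.

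Adm (chr7:110627661-110629820), the vasodilator adrenomedullin, had 10.3 and 11.9 TPM in sorted control, 18.8 and 15.9 TPM in sorted sg495, 16.2 and 16.6 TPM in cultured control and 4.25 and 3.81 TPM in cultured sg495. Its effects of 0.60 ± 0.12 and -1.79 ± 0.12 both passed the test, and differed by 2.39 ± 0.17 (adjusted p = 0.00225). Vegfa, Slc2a1 and Pfkp, given next, were chosen after their values were seen. Vegfa (chr17:46016993-46032369), the main angiogenic growth factor, had 185 and 197 TPM in sorted control, 281 and 287 TPM in sorted sg495, 82.9 and 80.5 TPM in cultured control and 42 and 42.4 TPM in cultured sg495. The replicates lay close together, and the effects of 0.57 ± 0.05 and -0.94 ± 0.05 differed by 1.51 ± 0.08 (adjusted p = 0.000742). The glucose transporter gene Slc2a1 followed, with 107 and 117 TPM in sorted control, 152 and 181 TPM in sorted sg495, 88 and 93.3 TPM in cultured control and 52.9 and 54.9 TPM in cultured sg495 (difference 1.30 ± 0.13, adjusted p = 0.0053). Pfkp, a phosphofructokinase of glycolysis, was the last hypoxia gene to move in both settings, from 232 and 238 TPM to 285 and 301 TPM in sorted cells and from 247 and 259 TPM to 166 and 168 TPM in culture (difference 0.91 ± 0.08, adjusted p = 0.00289).

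Other hypoxia genes fell in culture with no sorted effect past the test. Bnip3 among them was named after its values were seen. Car9, a carbonic anhydrase and a common hypoxia marker, had 308 and 333 TPM in sorted control, 415 and 411 TPM in sorted sg495, 14.6 and 16.1 TPM in cultured control and 4.41 and 2.57 TPM in cultured sg495. Its level was thus far higher in sorted than in cultured cells, and the effects were 0.37 (adjusted p = 0.246) and -1.89 (adjusted p = 0.00379), a difference of 2.26 ± 0.24 (adjusted p = 0.00741). Bnip3, a mitophagy receptor, had 493 and 622 TPM in sorted control, 641 and 708 TPM in sorted sg495, 457 and 456 TPM in cultured control and 165 and 157 TPM in cultured sg495 (difference 1.78 ± 0.15, adjusted p = 0.00289). In Ddit4, an inhibitor of mTORC1, the sorted groups overlapped, at 70.7 and 85.9 TPM against 76 and 95.9 TPM, and culture went from 113 and 112 TPM to 33.6 and 35.9 TPM (difference 1.79, adjusted p = 0.00537). Ankrd37 had a difference of 2.09 that did not pass the test. The other called members, named after their values were seen, were Aldoc (1.41), Ero1l (1.40), Egln1 (1.16), Higd1a (1.06), Pdk1 (0.99), Bnip3l (0.90), Hk2 (0.86), Slc16a3 (0.85) and Mxi1 (0.79), all as log2 differences. Egln1 encodes the prolyl hydroxylase that marks HIF for removal, and its effects were -0.13 in sorted cells and -1.29 in culture. The hypoxia calls numbered 8 without cultured control library 1, cultured control library 2 or cultured sg495 library 1, and 10 without cultured sg495 library 2. Without sorted sg495 library 1 they numbered 20, of which 17 had opposite effects.

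**Figure D3:**
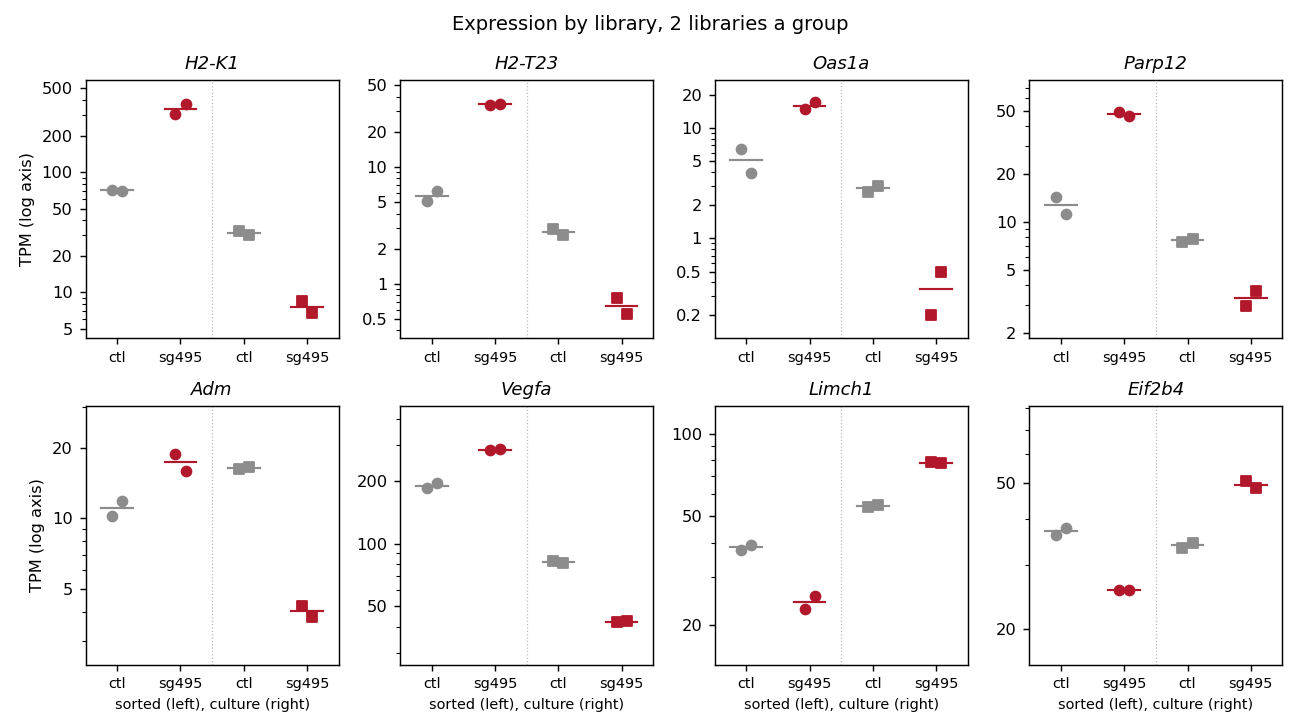
Level in each library (vertical axes, TPM, log scale) of 8 genes that moved in both settings in opposite directions, for control (grey) and sg495 (red) in sorted tumor cells (circles, left of the dotted line) and cultured cells (squares, right), with horizontal bars at the means of 2 libraries. For H2-K1, H2-T23, Oas1a, Parp12, Adm and Vegfa the sg495 points lie above control in sorted cells and below it in culture, and for Limch1 and Eif2b4 the reverse.

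The other genes past the test in both settings were chosen after their values were seen. Tnfrsf9, the costimulatory receptor 4-1BB, had 24 and 26.6 TPM in sorted control, 43.6 and 72.3 TPM in sorted sg495, 5.26 and 5.03 TPM in cultured control and 1.6 and 1.52 TPM in cultured sg495 (difference 2.38 ± 0.30, adjusted p = 0.0121). Its 2 sorted sg495 libraries were far apart, and both were above control. Mgarp, a mitochondrial protein, had 35.2 and 45.1 TPM in sorted control, 66.7 and 66.8 TPM in sorted sg495, 31.8 and 30.7 TPM in cultured control and 12.7 and 12.5 TPM in cultured sg495 (difference 1.98 ± 0.15, adjusted p = 0.00256). Hpse, the heparanase that cuts heparan sulfate in the matrix, went from 68 and 68.8 TPM to 83.9 and 87.1 TPM in sorted cells and from 14.9 TPM in both controls to 6.58 and 6.45 TPM in culture (difference 1.40 ± 0.09, adjusted p = 0.00165). Espn, an actin-bundling protein, Pnrc1, a nuclear receptor coactivator, F3, the tissue factor that starts clotting, and the pseudogene Rab11b-ps2 completed the direction, with differences of 1.47, 1.05, 0.79 and 2.49.

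The complement genes C2, C1ra and C1s1 were also called. They were chosen after their values were seen, and no list of complement genes was counted. C2 moved in both settings, from 65.7 and 58.3 TPM to 102 and 112 TPM in sorted cells and from 46.7 and 44.3 TPM to 29.4 and 26.9 TPM in culture (difference 1.45 ± 0.12, adjusted p = 0.00289). The protease C1ra had 7.79 and 7.65 TPM in sorted control, 13.1 and 14.5 TPM in sorted sg495, 3.16 and 2.72 TPM in cultured control and 1.9 and 1.78 TPM in cultured sg495 (difference 1.23, adjusted p = 0.0206). Its partner C1s1 had the same order of groups and a difference of 1.68 (adjusted p = 0.0232). In these 3 genes no library of a control group overlapped the sg495 libraries of its setting.

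**Figure D4:**
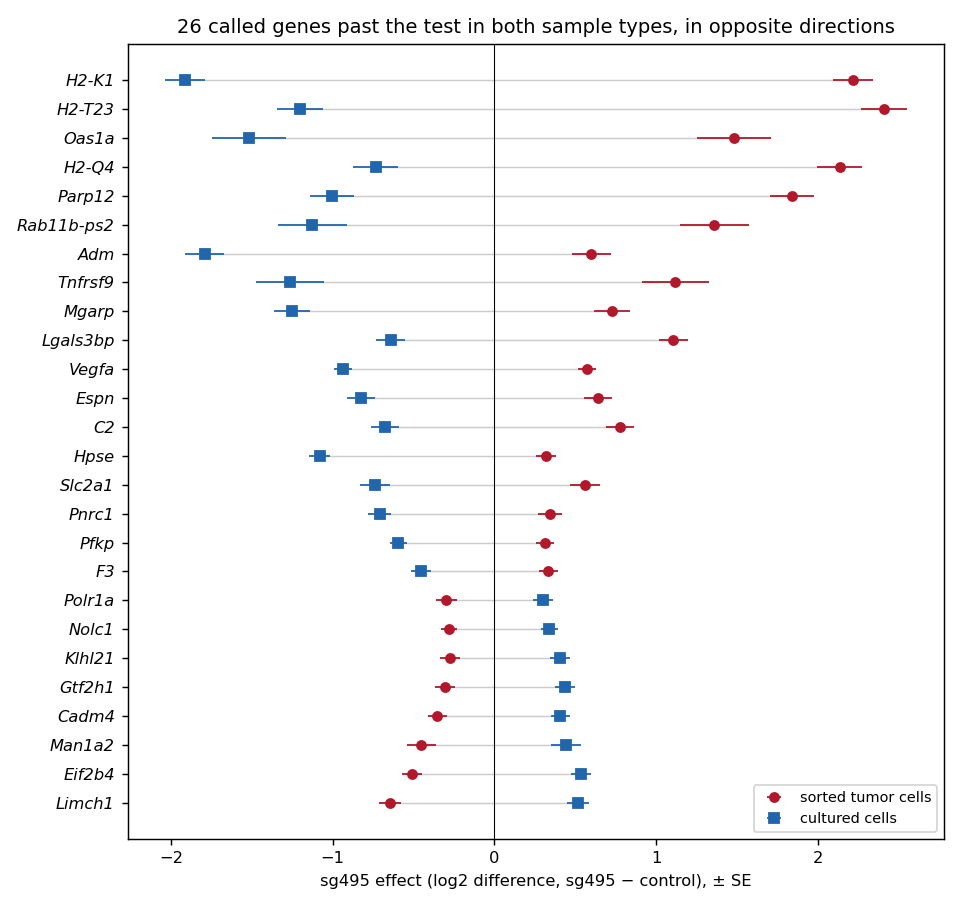
sg495 effect ± SE (horizontal axis, log2 difference of sg495 minus control) in sorted tumor cells (red circles) and cultured cells (blue squares) of the 26 genes called for the difference whose effects passed the limma test in both settings with opposite sign. The upper 18 genes, from H2-K1 to F3, are higher in sorted cells and lower in culture, and the lower 8, from Polr1a to Limch1, the reverse.

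Genes lower with sg495 in sorted cells and higher in culture had smaller differences, from -0.59 to -1.60, with a median of -0.71. By limma 0 of the 50 moved by 1.5-fold in both settings. Limch1 (chr5:66745827-67057158) had 37.7 and 39.3 TPM in sorted control, 23 and 25.6 TPM in sorted sg495, 54 and 55.1 TPM in cultured control and 78.6 and 78.2 TPM in cultured sg495. Its effects of -0.64 and 0.52 passed the test (adjusted p = 0.00377 and 0.0115), and the difference was -1.16 ± 0.10 (adjusted p = 0.00289). Eif2b4 (chr5:31187558-31193430), a subunit of the exchange factor for the translation initiation factor eIF2, had 36.2 and 37.8 TPM in sorted control, 25.6 TPM in both sorted sg495 libraries, 33.3 and 34.4 TPM in cultured control and 50.6 and 48.5 TPM in cultured sg495. The difference was -1.05 ± 0.09 (adjusted p = 0.00289), with effects of -0.51 and 0.54.

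The largest difference in this direction was that of a processed pseudogene, Gm10241 (-1.60, adjusted p = 0.00834), which the naming rule leaves out. The largest among protein-coding genes was that of Krt80, with 5.92 and 4.88 TPM in sorted control, 3.55 and 2.99 TPM in sorted sg495, 6.33 and 5.71 TPM in cultured control and 12 and 11.2 TPM in cultured sg495 (difference -1.43 ± 0.19, adjusted p = 0.0169). It rose in culture, while its sorted effect of -0.58 had an adjusted p of 0.0521. Slpi, a secreted inhibitor of leukocyte proteases, likewise rose in culture, from 6.35 and 5.91 TPM to 12.8 and 10.8 TPM, and was at 6.35 and 6.57 TPM against 5.65 and 4.73 TPM in sorted cells (difference -1.12 ± 0.18, adjusted p = 0.0299). Gxylt2, a xylosyltransferase, had the same form, with effects of -0.30 in sorted cells and 0.62 in culture and a difference of -0.92 (adjusted p = 0.0206).

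For other members the sorted cells carried the tested effect. Tg, the thyroglobulin gene (chr15:66670753-66850721), had 8.42 and 8.9 TPM in sorted control, 4.15 and 4.85 TPM in sorted sg495, 43.8 and 40.2 TPM in cultured control and 50.2 and 54.6 TPM in cultured sg495 (difference -1.13 ± 0.14, adjusted p = 0.0113). Its neighbour on the chromosome, Wisp1 (chr15:66891320-66923201), a matricellular protein of the Wnt pathway, had the same order of groups and a difference of -0.999 (adjusted p = 0.0394). Steap1, a membrane metalloreductase, differed by -1.07 (adjusted p = 0.0156) and Ccdc15 by -1.06 (adjusted p = 0.0356), each falling in sorted cells. Klf4, a transcription factor of epithelial and stem cells, was at 167 and 149 TPM in sorted control and 87.5 and 103 TPM in sorted sg495, against 1.59 and 1.72 TPM in cultured control and 2.01 and 2.46 TPM in cultured sg495 (difference -1.01 ± 0.17, adjusted p = 0.0299). Its levels differed far more between the settings than with the guide. In whole tumors, which were not part of the comparison, Klf4 was at 8.38 and 7.41 TPM in control and 6.69 and 4.97 TPM in sg495. Whole tumors also hold other cells, and the part of digestion and sorting in the sorted levels was not tested.

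Further called genes with a smaller effect in sorted cells were chosen after their values were seen. Several have a role in making ribosomes, but no list of such genes was counted. Nolc1, a nucleolar phosphoprotein, had 76.2 and 75.5 TPM in sorted control, 63.6 and 61 TPM in sorted sg495, 90.2 and 88.9 TPM in cultured control and 113 and 114 TPM in cultured sg495 (difference -0.62 ± 0.07, adjusted p = 0.01). Polr1a, the large subunit of RNA polymerase I, which transcribes ribosomal RNA, had 65.8 and 60.9 TPM in sorted control, 52.5 and 50.3 TPM in sorted sg495, 86.9 and 82 TPM in cultured control and 105 and 103 TPM in cultured sg495 (difference -0.60, adjusted p = 0.023). Nop2, an rRNA methyltransferase, rose in culture with an effect of 0.46, against -0.15 in sorted cells (difference -0.61, adjusted p = 0.0093). Tsr1, Pwp2, Utp20, Ddx21 and Ddx18, each with a role in ribosome assembly, were also called, with differences of -0.71, -0.65, -0.64, -0.61 and -0.60. Gtf2h1, a subunit of the general transcription factor TFIIH, had the same order of groups, at 250 and 251 TPM in sorted control, 211 and 194 TPM in sorted sg495, 273 and 255 TPM in cultured control and 348 and 366 TPM in cultured sg495 (difference -0.74, adjusted p = 0.0106). Man1a2, a mannosidase of glycoprotein maturation, Cadm4, an adhesion molecule, and Klhl21, a substrate adaptor of a ubiquitin ligase, were the remaining genes past the test in both settings, with differences of -0.90, -0.76 and -0.68.

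Among called genes without opposite effects, 6 with a smaller effect in sorted cells are named by rule, and 5 of them rose in culture. Ccnd1, the cyclin of G1 phase, was at 70.1 and 57.2 TPM in sorted control and 66.2 and 57.2 TPM in sorted sg495, while culture went from 65.7 and 65.1 TPM to 127 and 125 TPM (difference -0.97 ± 0.15, adjusted p = 0.0246). It was the 1 call among 34 cell cycle genes tested, and was lost without any 1 cultured library or sorted control library 1. Of these 34 cell cycle genes, 16 had an unadjusted limma p below 0.05 for the difference, beside 19.2% of all genes tested. In sorted cells 31 of the 34 had estimates below 0. Their median effects were -0.25 in sorted cells and -0.03 in culture. The median difference was -0.19, beside -0.04 over all genes. Id3, an inhibitor of basic helix-loop-helix factors, had 5.13 and 7.59 TPM in sorted control, 5.95 and 4.94 TPM in sorted sg495, 13.7 and 10.2 TPM in cultured control and 29.8 and 32.8 TPM in cultured sg495 (difference -1.50 ± 0.28, adjusted p = 0.0431). Mcam, a melanoma adhesion molecule, rose in culture by 0.89 with overlapping groups in sorted cells (difference -1.06, adjusted p = 0.0264). Tead4, a partner of YAP, and Wdr3, a nucleolar protein, differed by -0.71 and -0.78 (adjusted p = 0.0493 and 0.0333). Itga4, the α4 integrin, was of the other kind, falling from 32.5 and 29 TPM to 14.3 and 14.2 TPM in sorted cells with overlapping groups in culture (difference -1.18 ± 0.16, adjusted p = 0.0169).

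Of all genes tested 1.55% were called larger in sorted cells, and some stress genes were among them through a fall in culture. Of 26 tested genes of the ATF4 and amino acid response 3 were called, Trib3 (1.14, adjusted p = 0.00418), Ddit3 (0.99) and Chac1 (0.71). Trib3, a pseudokinase induced by ATF4, had 170 and 155 TPM in sorted control, 136 and 150 TPM in sorted sg495, 28.9 and 29.7 TPM in cultured control and 11 and 11.2 TPM in cultured sg495. The list's median difference was -0.17, and other members, such as the serine synthesis gene Phgdh (-0.57), lay below 0 without a call. Of the 26, 23 had estimates below 0 in sorted cells and 16 in culture. For the difference 18 had an unadjusted limma p below 0.05, beside 19.2% of all genes tested, and 9 estimates lay above 0. The largest was that of Vldlr, uncalled at -1.43 ± 0.41, with 3.84 and 4.56 TPM in sorted control, 0.07 and 0.67 TPM in sorted sg495 and at most 0.44 TPM in culture. Calls with a larger effect on this list numbered 1 without any 1 control library of either setting. Ier3, an early-response survival gene on the immediate early and MAPK lists, was at 75.6 and 88.3 TPM in sorted control and 91.6 and 111 TPM in sorted sg495, and fell in culture from 279 and 286 TPM to 108 and 101 TPM (difference 1.73, adjusted p = 0.00346). Of the 22 immediate early genes the 1 other call was Klf4, and of the 14 MAPK feedback genes there was no other. Without sorted sg495 library 1 the immediate early calls were 6 larger and 2 smaller, and without any 1 cultured library and without either sorted control library the call of Klf4 was lost.

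The remaining lists had few or no calls by limma, where 1.55% of all genes tested were called larger and 0.494% smaller. Of 16 metal and oxidative stress genes 1 was called, Hmox1, the heme oxygenase (1.38, adjusted p = 0.0463). Of 15 NF-κB and cytokine genes 1 was called, Nfkbiz (1.42). Of 18 genes of caspases and inflammatory cell death 2 were called, Zbp1 (3.96) and Mlkl (0.97), both mediators of necroptosis. Hmox1 and Mlkl lie on chromosome 8, where values were lower with sg495 in both settings. With chromosome 8 centered, the metal and cell death lists kept 1 and 2 calls. The genes falling by at least 1.5-fold in culture went from 3 to 1 in each of these lists. The calls of Hmox1 and Nfkbiz were lost without any 1 cultured library and without either sorted control library. The cell death list had 0 calls without cultured control library 1 or 2 or cultured sg495 library 2, 1 without cultured sg495 library 1 and 5 without sorted sg495 library 1. Over all genes tested, 2418 (19.2%) had an unadjusted p below 0.05. The lists with 0 calls were cholesterol synthesis, where 8 of 25 genes had an unadjusted p below 0.05, the melanocyte lineage (5 of 18), heat shock chaperones (2 of 16) and collagens and matrix (5 of 19). Their median differences lay between -0.01 and 0.08. Heat shock genes stood high in sorted sg495 library 2, as in Hspa1b at 300.2 TPM, against 71 TPM in sorted sg495 library 1 and 38.1 and 45.5 TPM in sorted control, and in Dnajb1 at 146 TPM against 47.1 TPM in library 1. Without sorted sg495 library 1 the heat shock list had 3 calls, and 7 of its genes were called higher in sorted cells. Of the markers of other cell types that were tested, the leukocyte list had 1 of 7 genes with an unadjusted p below 0.05, T and NK cells 0 of 1, fibroblasts 1 of 3, endothelium 1 of 2 and erythroid cells 0 of 3, with 0 calls in each. Their median differences were 0.24, 0.52, -0.19, 0.36 and 0.96, and without sorted sg495 library 1 the erythroid list had 1 call.

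Nacc1 and Fkbp10, which the study followed up beside Nr2f6, were not called for a difference between the settings. Nacc1, a transcriptional regulator on chromosome 8, had 61.8 and 63.5 TPM in sorted control, 34.2 and 35 TPM in sorted sg495, 89.8 and 86.4 TPM in cultured control and 54.3 and 58.8 TPM in cultured sg495. It fell in both settings, with effects of -0.84 and -0.63 and a difference of -0.21 (adjusted p = 0.263). Fkbp10, a collagen chaperone, had 41.5 and 44.9 TPM in sorted control, 26.1 and 20.8 TPM in sorted sg495, 11.5 and 9.09 TPM in cultured control and 5.3 and 6.7 TPM in cultured sg495. Its effects were -0.86 (adjusted p = 0.0258) and -0.69 (adjusted p = 0.0616), and the difference was -0.17 (adjusted p = 0.728).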

How the data were processed

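Single-end poly(A) RNA-seq libraries of B16F10 cells were compared. The authors trimmed reads with cutadapt 2.3, aligned them to mm10 with STAR 2.7.0d and estimated expression with RSEM 1.3.1, and they deposited TPM for 47643 genes in 23 libraries. Their own test, on estimated counts, was not repeated. TPM scale each library to the same total, so the depth is unknown, no counting interval can be given, and a strong rise of some genes lowers the TPM of the rest. Gene positions are GENCODE annotations on GRCm38.

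Groups were taken from the labels. Genes that averaged 1 TPM or more in the 8 libraries were analysed as log2(TPM + 1), a scale that understates the change of low genes. limma 3.58.1 (R 4.3.3) fitted 1 mean for each of 4 groups, with an expression trend and 2-sided tests, with Benjamini-Hochberg adjustment over 12563 genes for each of 3 contrasts: the 2 effects and their difference. Every adjusted p is from this model. Tables and plots were made with Python 3.11.15, pandas 2.3.3 and matplotlib 3.10.9.

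Genes named were, of protein-coding genes with opposite effects, the 10 with the largest difference in each direction, of other called protein-coding genes the 6 with the largest, up to 4 per list, and Nr2f6, Nacc1, Fkbp10 and Cxcl10. Other genes, cell type markers aside, were chosen after their values were seen, also where the text does not say so. The values of 1 called gene are not reported here. The members, gene lists and tests were chosen with earlier results of these data known. The alternatives were another pseudocount, filter, scaling or sample set, a replicate block, no trend and other thresholds. Each library was also left out in turn, and chromosome 8 was centered on its median effect in each setting.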

Additional observations from a re-analysis of the deposited data

Results flagged for a closer look

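The results here were singled out because the sg495 effect differed between sorted tumor cells and cultured cells by the limma test of the difference itself. The counts are 195 genes with a larger effect in sorted cells, 62 with a smaller one, 105 higher with sg495 in sorted cells and lower in culture, and 50 with the reverse.

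All values that follow are differences of the log2 effects, sorted minus cultured. Among genes higher in sorted cells and lower in culture, the MHC genes were H2-K1 (4.13), H2-T23 (3.61), H2-DMb1 (3.53), B2m (2.93), H2-Q4 (2.87) and H2-D1 (2.86), and the others were Irf1 (4.05), Oas1a (2.999), Parp12 (2.85) and Prph (2.81), the last a neuronal intermediate filament gene. Prph had 3.81 and 1.51 TPM in sorted control, 20.3 and 12.6 TPM in sorted sg495, 2.4 and 1.97 TPM in cultured control and 1.25 and 1.2 TPM in cultured sg495 (adjusted p = 0.0323 for the difference). Genes near silent in culture were Tgtp2 (5.63), H2-Aa (5.21), Psmb8 (5.19), Igtp (5.12), Cd74 (5.08) and Tgtp1 (4.87).

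Among genes lower in sorted cells and higher in culture were Krt80 (-1.43), Limch1 (-1.16), Tg (-1.13), Slpi (-1.12), Steap1 (-1.07), Ccdc15 (-1.06), Eif2b4 (-1.05), Klf4 (-1.01), Wisp1 (-0.999) and Gxylt2 (-0.92). Called genes with a smaller effect in sorted cells but no opposite effects were Id3 (-1.50), Itga4 (-1.18), Mcam (-1.06), Ccnd1 (-0.97), Wdr3 (-0.78) and Tead4 (-0.71).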

How the results depend on the processing

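With 2 libraries a group the counts of calls varied widely. Of 94 called genes that were named and followed over the alternatives, 0 changed direction. Some called genes in the text, such as Higd1a and Ddit3, were not followed. With no filter on low values the calls were 116 larger and 34 smaller, with 52 and 19 opposite. With no expression trend they were 29 smaller, with 65 and 19 opposite, and with no fold threshold 116 smaller, with 92 opposite in that direction. With both effects at 1.5-fold, 19 opposite genes higher in sorted cells were left and 0 of the reverse. Leaving out each library in turn gave 48 to 245 larger and 4 to 116 smaller calls, and 28 to 156 and 2 to 90 opposite, where the lone library of a group is assumed to vary like the others. A pseudocount of 0.1, a minimum of 5 TPM, other scalings and other sample sets kept each of these 4 counts over all genes within 1.5 times. With chromosome 8 centered they were 190 larger and 61 smaller, with 104 and 50 opposite. Counts within lists moved more: with a pseudocount of 0.1 the immunity-related GTPases had 2 calls and the guanylate-binding proteins 1, with a minimum of 5 TPM the antiviral genes had 15, with no filter 10 and with a block within each setting 9, and with 18 libraries in the fit the ATF4 list had 0 by limma. The labels do not say whether same-numbered libraries were prepared together. Their deviations from the group means correlated at -0.08 to 0.06 over the genes tested. This does not settle the question, since a shared preparation could affect some genes only. With a replicate block as 1 term the calls were 149 larger and 42 smaller, with 75 and 32 opposite, and with a block within each setting 132 and 15, with 68 and 8 opposite. Of 94 named called genes, 27 kept their call in each of 19 alternatives and 14 in fewer than 10, among them Tead4, Cd276, Nfkbiz and Id3. H2-K1, Vegfa and Limch1 were among the 27, with highest adjusted p of 0.00914, 0.0134 and 0.0307. With each library left out, the difference of effects of Nr2f6 was -0.182 to 0.0795, with other values above 0 of 0.0424 without sorted control library 1 and 0.0411 without sorted sg495 library 1. The difference of effects of Cxcl10 was -0.0327 to 0.36, the lowest without sorted control library 1.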

Other observations

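The series also holds libraries of a different guide, sg492, and of whole tumors (bulk), which were not part of the comparison. The sg492 libraries share the controls used above, so their values are given side by side with no comparison. H2-K1 was at 86.3 and 49.4 TPM in sorted sg492 and 20.4 and 15.9 TPM in cultured sg492, and at 250.2 and 136 TPM in bulk control and 460.2 and 418 TPM in bulk sg495. Adm was at 9.83 and 6.99 TPM in sorted sg492, 12.4 and 13.7 TPM in cultured sg492, 15.5 and 22.4 TPM in bulk control and 37.9 and 34.7 TPM in bulk sg495. Vegfa was at 275 and 189 TPM in sorted sg492, 67.9 and 59.1 TPM in cultured sg492, 91.4 and 123 TPM in bulk control and 146 and 136 TPM in bulk sg495. Limch1 was at 38.5 and 31.1 TPM in sorted sg492, 58.1 and 67.3 TPM in cultured sg492, 29.8 and 30 TPM in bulk control and 25.6 and 30.5 TPM in bulk sg495. Eif2b4 was at 32 and 32.5 TPM in sorted sg492, 39.8 and 39.6 TPM in cultured sg492, 30.5 and 27.2 TPM in bulk control and 35.4 and 40.2 TPM in bulk sg495. In bulk its sg495 libraries thus lay above control, the reverse of its order in sorted cells. Nr2f6 itself was at 19.8 and 25.7 TPM in sorted sg492 and 26.6 and 31.5 TPM in cultured sg492.

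Vhl, whose product targets HIF factors for degradation and which was on no list, was higher with sg495 in sorted cells by 0.32 (adjusted p = 0.0695) and fell by 0.60 in culture (adjusted p = 0.0126), a difference of 0.92 (adjusted p = 0.0135). Id2, the relative of Id3, was called with a difference of -0.63 (adjusted p = 0.0206), and Itga6, the α6 integrin, with -0.79 (adjusted p = 0.0169) after a rise of 0.53 in culture. These 3 genes were chosen after their values were seen.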
